A study of Mus musculus with 24 samples.

Results

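Gas6 and Pros1, the ligands of the TAM receptor tyrosine kinases, and the receptors Axl, Mertk and Tyro3 were followed as mRNAs through 3 populations of sorted mouse bone marrow cells with and without loss of Mysm1, a histone H2A deubiquitinase. These 5 genes are 5 of the 23364 gene symbols in the count files, each matched by symbol. Gas6 was chosen by its counts, which were higher in Mysm1-deleted MPP2 cells than in heterozygous MPP2 cells, and the other 4 genes because they belong to the same ligand and receptor system. The difference between those MPP2 groups is therefore a description here and carries no test.

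Gas6 and protein S, the product of Pros1, are secreted proteins whose vitamin K-dependent Gla domain binds phosphatidylserine on dying cells, platelets and vesicles, while their other end binds a TAM receptor. Gas6 binds Axl, Mertk and Tyro3, and protein S binds Mertk and Tyro3. The receptors are known for the uptake of dying cells by macrophages and for damping inflammatory signals, and Gas6 and Axl have been studied in blood stem cells and leukaemia.

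Marrow cells of male and female C57BL/6 mice aged 8 to 12 weeks were sorted as lineage-negative, Kit-positive, Sca1-positive, CD150-positive and Flt3-negative. HSC, the stem cells, lacked CD34 and CD48, MPP1 progenitors carried CD34 alone, and MPP2 progenitors carried both. KO libraries (n = 3 in each population) came from Mysm1 fl/fl CreERT2 mice given tamoxifen, 8 injections of 0.15 mg per gram over 16 days. Het libraries (n = 3) came from Mysm1 +/fl CreERT2 mice given the same tamoxifen, and Sham libraries (n = 2) from Mysm1 fl mice given corn oil alone. KO and Het thus share tamoxifen and CreERT2. KO and Sham differ in the drug as well as in the gene, and the Sham genotype as given names no CreERT2. The promoter that drives CreERT2 is not given in the sources used here. Each library pooled several mice, so that tests measure the spread between pools.

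The 24 libraries held 18823971 to 53196624 counts, with 15740 to 21150 genes detected, the fewest in HSC KO library 1 and HSC Het library 2_3. Mysm1 itself stood at 76.7 to 121 CPM in KO libraries, against 98.5 to 138 CPM in Het libraries and 108 to 121 CPM in Sham libraries (CPM is the count of a gene relative to the library size scaled by TMM). The labels place the deletion in exon 3, and a count over the whole gene does not check it. Cd48 reached 34.0 to 56.9 CPM in MPP2 KO, 13.8 to 24.1 CPM in MPP2 Het and 18.7 to 30.5 CPM in MPP2 Sham libraries, while none of the HSC and MPP1 libraries exceeded 2.81 CPM. Cd34 was 119 to 215 CPM in MPP1 libraries and 44.1 to 106 CPM in HSC libraries, but in MPP2 it was 149 to 272 CPM in KO, 67.6 to 230 CPM in Het and 51.5 to 104 CPM in Sham. MPP2 Sham and Het libraries thus overlapped in Cd34 with HSC, whose gate was CD34-negative. Ly6a, which encodes Sca1, was 4.66 to 8.48 CPM in MPP2 KO, 1.06 to 5.04 CPM in MPP2 Het and 0.825 to 1.57 CPM in MPP2 Sham, against 18.4 to 22.8 CPM in HSC Sham libraries, although all cells were sorted as Sca1-positive. Flt3, whose protein was gated out, was 11.8 to 24.9 CPM in MPP2 KO, 4.5 to 98.0 CPM in MPP2 Het and 6.30 to 7.53 CPM in MPP2 Sham.

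The window of 250 bases before the start of each ligand gene is shown because the ligands behaved differently across these cells. The sequences are RefSeq's for GRCm38.p6, 5′ to 3′ on the strand of the gene, and capitals mark the GC box GGGCGG or its complement on either strand.
Gas6, minus strand, chr8:13494536-13494785: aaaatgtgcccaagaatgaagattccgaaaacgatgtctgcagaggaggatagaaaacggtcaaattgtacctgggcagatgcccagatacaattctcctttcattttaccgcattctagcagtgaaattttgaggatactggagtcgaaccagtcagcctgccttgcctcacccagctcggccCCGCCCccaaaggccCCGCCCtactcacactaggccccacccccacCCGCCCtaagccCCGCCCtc
Pros1, plus strand, chr16:62854057-62854306: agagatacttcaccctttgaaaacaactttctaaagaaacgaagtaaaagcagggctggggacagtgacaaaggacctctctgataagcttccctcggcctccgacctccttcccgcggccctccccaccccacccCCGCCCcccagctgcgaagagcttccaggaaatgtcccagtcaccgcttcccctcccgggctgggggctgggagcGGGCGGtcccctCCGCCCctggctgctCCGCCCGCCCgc
The Gas6 window held 4 GC boxes and 10 CpG dinucleotides at 54.8% GC. The Pros1 window held 5 GC boxes, a pair of which overlap, and 15 CpG dinucleotides at 64.4% GC. The windows of Mertk and Tyro3 held 3 GC boxes each and that of Axl held 1. Of 32851 windows of the same length, 32.7% held a GC box, and their medians were 52.4% GC and 6 CpG. None of the 5 windows held the TATA box TATAAA on either strand, which 12.4% of all windows did. The same was true of the letters CCAAT, found in 33.8% of all windows. It was also true of the E-box CACGTG, found in 6.02%. These are matches of letters, not sites of binding.

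Gas6 was present in HSC and MPP1 and low in control MPP2. Gas6 (mm9, chromosome 8, 13465374 to 13494535, minus strand, 15 exons) had 0.825 and 1.46 CPM in Sham MPP2 libraries, against 12.8 and 14.1 CPM in Sham HSC libraries and 10.2 and 12.7 CPM in Sham MPP1 libraries. Those MPP2 values rest on 28 and 39 counts. Both MPP2 libraries lay below each HSC and MPP1 library. The level in Sham MPP2 was 11.8-fold lower than in Sham HSC, a log2 change of -3.56 ± 0.53 (approximate SE; adjusted p = 1.67e-05, edgeR's quasi-likelihood test). Against Sham MPP1 it was 10.0-fold lower, a log2 change of -3.33 ± 0.53 (adjusted p = 0.0001). Between Sham MPP1 and Sham HSC the log2 change was -0.23 ± 0.47 (adjusted p = 1). Summed markers of other cells also differed between Sham MPP2 and Sham HSC, at 7.81 to 16.3 CPM in MPP2 and 95.2 to 157 CPM in HSC for 11 B cell markers, 151 to 184 CPM in MPP2 and 204 to 256 CPM in HSC for 14 stroma and endothelium markers, and 1070 to 1950 CPM in MPP2 and 741 to 753 CPM in HSC for 15 megakaryocyte and platelet markers. Their part in the Gas6 difference was not tested.

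In KO MPP2 cells Gas6 was well above both controls. The 3 MPP2 KO libraries had 6.42, 6.47 and 3.93 CPM (288, 228 and 124 counts), against 0.617, 1.42 and 0.603 CPM in MPP2 Het libraries (20, 38 and 24 counts) and 0.825 and 1.46 CPM in MPP2 Sham libraries. All KO libraries lay above all 5 controls, and the lowest of them, library 4, was above the highest control. The mean of 5.61 ± 1.45 CPM in KO (SD, n = 3) stood against 0.880 ± 0.466 CPM in Het (n = 3), with a fitted log2 change of 2.68 ± 0.43, which is 6.43-fold. Against Sham, 1.14 ± 0.45 CPM (n = 2), the fitted log2 change was 2.30 ± 0.49, and in the deposited normalized table it was 1.27. Without MPP2 Het library 2_3, which stands apart by its neutrophil genes, the log2 change against Het was 3.19. The KO mean still stood below the 8.23 ± 1.60 CPM of HSC KO and the 11.1 ± 1.24 CPM of MPP1 KO libraries (n = 3 each). In all of these bulk libraries more cells with Gas6 and more Gas6 RNA per cell cannot be told apart.

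Values of other genes stood apart beside this difference in MPP2. Summed over 13 neutrophil markers the level was 124 to 177 CPM in KO, against 212 to 3560 CPM in Het and 241 to 319 CPM in Sham, with the highest value in Het library 2_3. Summed over 14 stroma and endothelium markers it was 171 to 195 CPM in KO, 200 to 208 CPM in Het and 151 to 184 CPM in Sham. The 8 late erythroid markers, whose globin genes reached at most 0.113 CPM, gave 4.80 to 9.26 CPM in KO, 10.6 to 12.2 CPM in Het and 9.18 to 11.8 CPM in Sham. All 3 sums were lower in KO than in Het. Within the stroma and endothelium list, Pecam1, Tek and Lepr averaged 56.0, 55.2 and 28.7 CPM in KO and 55.7, 48.4 and 39.6 CPM in Het. Col1a2 went against the sum, at 15.2 to 24.2 CPM in KO and 6.05 to 13.5 CPM in Het. The 11 B cell markers summed to 22.5 to 42.8 CPM in KO, 14.4 to 29.9 CPM in Het and 7.81 to 16.3 CPM in Sham, so that KO lay above Sham and overlapped with Het. Of these, H2-Aa, a chain of MHC class II, passed as higher in KO, at 7.42 to 13.8 CPM, than in Het, at 2.10 to 3.59 CPM, with 0.824 to 1.00 CPM in Sham, and was named after its values were seen. The sums of T and NK cell markers and of megakaryocyte and platelet markers overlapped between KO and Het. The 13 macrophage markers, of a cell type known for TAM receptors, overlapped at 32.7 to 40.9 CPM in KO, 35.9 to 62.9 CPM in Het and 24.6 to 34.4 CPM in Sham. Among the sort markers, Cd48 and Slamf1, which encodes CD150, were higher in every MPP2 KO library than in every MPP2 Het library. Slamf1 had 37.4 to 51.3 CPM in KO, 20.2 to 27.5 CPM in Het and 21.3 to 28.7 CPM in Sham. Neither gene passed against Het (log2 changes of 1.19 ± 0.77 for Cd48 and 0.79 ± 0.21 for Slamf1, adjusted p = 0.993 and 0.118, edgeR). Ly6a overlapped between KO and Het, as given above (log2 change 1.26 ± 0.40, adjusted p = 0.326). The part of these markers in the Gas6 difference was not tested.

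In HSC the KO libraries had less Gas6 than all controls, without passing the test. HSC KO libraries had 6.72, 9.90 and 8.08 CPM, against 11.2, 12.2 and 14.5 CPM in HSC Het and 12.8 and 14.1 CPM in HSC Sham libraries. The groups did not overlap. The log2 change was -0.62 ± 0.39 against Het (adjusted p = 0.475, edgeR) and -0.71 ± 0.43 against Sham (adjusted p = 0.47). Without HSC KO library 1 and HSC Het library 2_3 it was -0.52 against Het (adjusted p = 0.911). The 15 megakaryocyte and platelet markers stood at 1420 to 1950 CPM in HSC KO, 620 to 947 CPM in HSC Het and 741 to 753 CPM in HSC Sham, and their part in the Gas6 values was not tested.

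In MPP1 the groups overlapped. MPP1 KO libraries had 11.0, 9.94 and 12.4 CPM of Gas6, against 4.46, 16.1 and 9.22 CPM in MPP1 Het and 10.2 and 12.7 CPM in MPP1 Sham libraries. Het libraries 1 and 2_3 were the lowest and the highest of all 8. KO against Het gave a log2 change of 0.16 ± 0.39 (adjusted p = 0.895, edgeR). The KO effect in MPP1 minus that in HSC was 0.78 ± 0.55 on the log2 scale, and this difference did not pass (adjusted p = 1).

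**Figure D1:**
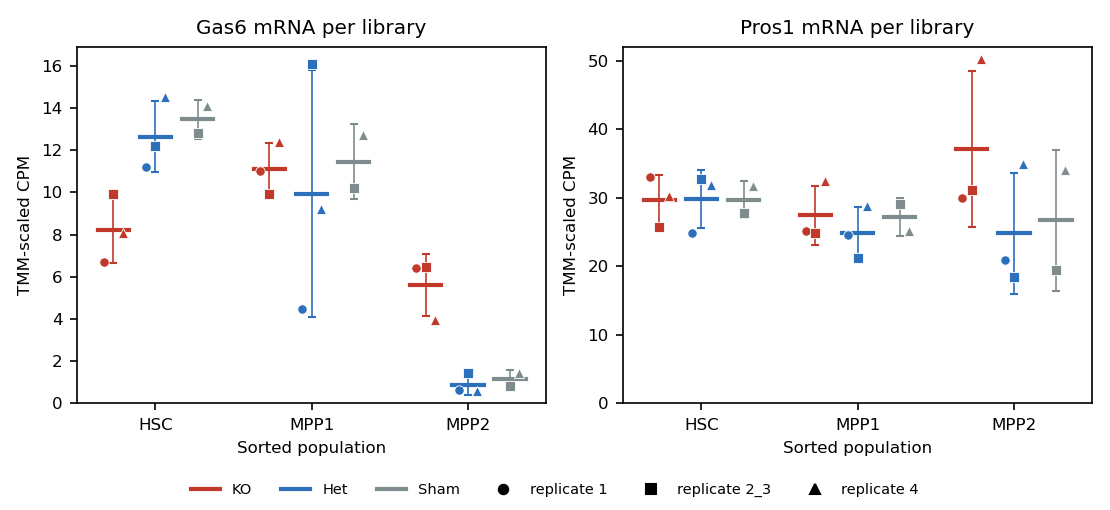
TMM-scaled CPM of Gas6 (left) and Pros1 (right) in each library of HSC, MPP1 and MPP2, for KO, Het and Sham; points are libraries with their replicate number, bars the mean and SD. Gas6 in MPP2 lies at 3.93 to 6.47 CPM in KO libraries and at 0.603 to 1.46 CPM in the 5 control libraries, while Pros1 runs from 18.6 to 50.3 CPM over all 24 libraries.

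Pros1, the gene of protein S, passed no tested comparison. Pros1 (chromosome 16, 62854133 to 62929172, plus strand) had 33.0, 25.8 and 30.2 CPM in HSC KO libraries, against 24.9, 32.7 and 31.9 CPM in HSC Het and 27.8 and 31.7 CPM in HSC Sham libraries. MPP1 libraries ran from 24.8 to 32.4 CPM in KO, from 21.2 to 28.8 CPM in Het and from 25.2 to 29.1 CPM in Sham. Groups overlapped in both populations. The log2 changes of KO against Het were -0.01 ± 0.24 in HSC and 0.14 ± 0.24 in MPP1 (adjusted p = 1 and 0.846, edgeR). Sham MPP2 differed from Sham HSC by -0.16 ± 0.29 and from Sham MPP1 by -0.02 ± 0.30 (adjusted p = 0.756 and 0.979), so that the fall of Gas6 in MPP2 had no counterpart of its size in Pros1.

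In MPP2 the Pros1 ranges of KO and Het overlapped. MPP2 KO libraries 1, 2_3 and 4 had 30.0, 31.1 and 50.3 CPM, against 21.0, 18.6 and 34.9 CPM in the Het libraries of the same numbers, and Sham libraries 2_3 and 4 had 19.4 and 34.0 CPM. Library 4 was the highest in each of the 3 groups, and each KO library exceeded the Het library with its number. The fitted log2 change of KO against Het was 0.58 ± 0.24. What the numbers share is not given in the labels.

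Per kilobase of transcript, Pros1 was the more abundant ligand in all 24 libraries with the lengths of the count files, and in all but MPP1 Het library 2_3 with GENCODE exon lengths, where Gas6 made up 54.5%. Over 24 libraries its level per length was 8.77 ± 2.01 CPM per kb and that of Gas6 was 3.17 ± 1.87 CPM per kb (SD, length as given in the count files). Gas6 made up 8.97 to 21.3% of the summed ligand level per length in MPP2 KO libraries, against 2.13 to 8.79% in MPP2 Het and 5.08 to 5.14% in MPP2 Sham libraries. The lowest KO library exceeded the highest Het library only narrowly. In HSC the share was 20.4 to 32.6% in KO, 32.0 to 36.5% in Het and 36.0 to 36.7% in Sham, and the KO and Het ranges overlapped. In MPP1 it was 32.6 to 35.6% in KO, 18.6 to 48.9% in Het and 30.7 to 38.8% in Sham, with the KO range inside that of Het.

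All 3 receptors were present at low levels. Per length, Mertk averaged 0.882 ± 0.764, Axl 0.694 ± 0.343 and Tyro3 0.401 ± 0.298 CPM per kb over 24 libraries (SD), so Mertk and Axl did not differ beyond their spread. The order rests on the length of Axl, which is 14934 bases in the count files but 5033 bases as the union of its exons in the GENCODE annotation of mm9. Which sequence was counted for Axl is not given in the sources used here, so that its counts and CPM values may include reads from outside these exons. With GENCODE exon lengths Axl averaged 2.06, Mertk 0.723 and Tyro3 0.257 CPM per kb. The summed ligands exceeded the summed receptors in every library with either length, by 3.48 to 18.3 times with the first and 1.83 to 7.41 times with the second. Summed receptors per length were 1.16 to 1.56 CPM per kb in MPP2 KO, 0.901 to 1.50 in MPP2 Het and 0.598 to 0.987 in MPP2 Sham, where all KO libraries exceeded all Sham libraries and overlapped with Het.

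**Figure D2:**
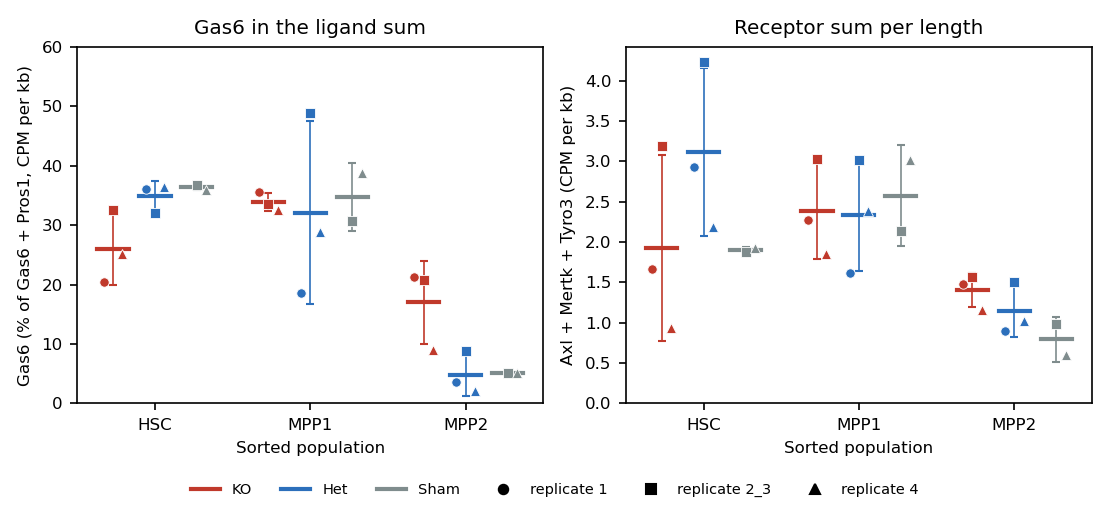
Left, Gas6 as a percentage of Gas6 plus Pros1, and right, the sum of Axl, Mertk and Tyro3, both from CPM per kb with the lengths of the count files, in each library of HSC, MPP1 and MPP2 for KO, Het and Sham (points: libraries; bars: mean and SD). The Gas6 share in MPP2 is 8.97 to 21.3% in KO and 2.13 to 8.79% in Het, and the receptor sum in MPP2 is 1.16 to 1.56 CPM per kb in KO and 0.598 to 0.987 in Sham.

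Axl, the receptor with the highest affinity for Gas6, was lower in MPP2 than in the other populations in Sham mice, short of the threshold. Axl (chromosome 7, 26542292 to 26573724, minus strand) had 5.86 and 5.69 CPM in Sham MPP2 libraries, against 11.6 and 17.5 CPM in Sham HSC and 14.6 and 17.2 CPM in Sham MPP1 libraries. Both MPP2 libraries lay below the other 4. The log2 change was -1.33 ± 0.62 against HSC and -1.46 ± 0.62 against MPP1 (adjusted p = 0.141 and 0.127, edgeR). With only the 4 libraries of each comparison in the fit these passed (adjusted p = 0.027 and 0.00765), and without HSC KO library 1 and HSC Het library 2_3 the first also did (adjusted p = 0.0428).

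Axl did not separate KO from Het. HSC KO libraries had 5.97, 15.3 and 8.57 CPM, against 14.7, 3.29 and 15.8 CPM in HSC Het libraries. MPP1 KO libraries had 6.09, 21.6 and 8.96 CPM, against 6.81, 18.2 and 9.26 CPM in MPP1 Het libraries. Library 2_3 was the highest in both of these MPP1 groups. MPP2 KO libraries had 7.14, 8.99 and 6.56 CPM, against 7.38, 6.90 and 4.93 CPM in MPP2 Het libraries. The log2 change was -0.18 ± 0.50 in HSC and 0.09 ± 0.49 in MPP1 (adjusted p = 0.956 and 0.958, edgeR), and the fitted value in MPP2 was 0.24 ± 0.50.

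Mertk, the receptor by which macrophages take up dying cells, varied widely between libraries. Mertk (chromosome 2, 128524692 to 128628630, plus strand) overlaps the annotated genes Gm14011 and SNORA25, and as the strand setting of the counting is not stated, their reads may be included. In Sham, MPP2 libraries had 1.33 and 0.0375 CPM, the second from a single count, against 3.31 and 1.32 CPM in HSC and 3.17 and 5.39 CPM in MPP1 libraries. MPP2 lay below MPP1 in all 4 libraries and overlapped narrowly with HSC. The log2 change was -1.74 ± 0.99 against HSC and -2.63 ± 1.02 against MPP1 (adjusted p = 0.234 and 0.0819, edgeR). The second passed with DESeq2, with limma-trend and with the replicate number as a block (adjusted p = 0.0286, 0.0185 and 0.0165), and both passed without MPP2 Sham library 2_3 (log2 changes of -5.81 and -6.69, adjusted p = 0.0142 and 0.0207), which leaves the library with the single count.

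KO libraries were low in Mertk in MPP1. MPP1 KO libraries had 1.98, 2.38 and 2.20 CPM, against 2.74, 5.58 and 5.41 CPM in MPP1 Het and 3.17 and 5.39 CPM in MPP1 Sham libraries. All KO libraries lay below all controls, yet the log2 change against Het of -1.06 ± 0.78 did not pass (adjusted p = 0.662, edgeR). HSC KO libraries had 1.69, 6.08 and 1.01 CPM, against 4.56, 13.3 and 3.06 CPM in HSC Het and 3.31 and 1.32 CPM in HSC Sham libraries. Library 2_3 was the highest in each HSC group, and KO against Het gave a log2 change of -1.26 ± 0.78 (adjusted p = 0.471). In MPP2 the KO libraries had 0.981, 1.90 and 2.00 CPM and the Het libraries 0.926, 2.80 and 2.11 CPM, a fitted log2 change of -0.26 ± 0.78.

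In MPP1 every KO library had more Tyro3 than every control. Tyro3 (chromosome 2, 119623469 to 119643840, plus strand), a receptor best known from the nervous system, had 5.21, 3.63 and 2.53 CPM in MPP1 KO libraries, against 1.58, 0.902 and 0.952 CPM in MPP1 Het and 1.05 and 1.42 CPM in MPP1 Sham libraries. The lowest KO library was well above the highest control. The log2 change was 1.72 ± 0.91 against Het and 1.62 ± 1.04 against Sham, and neither passed (adjusted p = 0.574 and 0.595, edgeR). In these MPP1 libraries the late erythroid markers, whose globin genes were at 0, summed to 2.49 to 7.33 CPM in KO, 7.77 to 10.6 CPM in Het and 5.90 to 11.4 CPM in Sham. The 12 T and NK cell markers summed to 30.9 to 41.2 CPM in KO, 43.6 to 47.3 CPM in Het and 35.7 to 41.6 CPM in Sham. For stroma and endothelium markers the sums were 165 to 224 CPM in KO, 227 to 251 CPM in Het and 231 to 242 CPM in Sham. All 3 sums were lower in KO than in Het. Against Sham, the late erythroid sum and the T and NK cell sum overlapped with KO. Not every gene followed its sum, as Nkg7 averaged 12.1 CPM in KO and 4.81 CPM in Het. The 11 B cell markers summed to 107 to 125 CPM in KO, 51.8 to 112 CPM in Het and 55.8 to 82.8 CPM in Sham. Megakaryocyte and platelet markers summed to 1280 to 2300 CPM in KO, 746 to 2020 CPM in Het and 993 to 1100 CPM in Sham. For both of these lists KO lay above Sham and overlapped with Het. The macrophage and neutrophil sums of KO overlapped with Het and with Sham. The part of these markers in the values of Mertk and Tyro3 was not tested.

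In HSC and MPP2 the Tyro3 groups overlapped. HSC KO libraries 1, 2_3 and 4 had 3.12, 1.83 and 0.310 CPM, against 2.66, 1.04 and 1.05 CPM in HSC Het libraries (log2 change 0.15 ± 0.88, adjusted p = 0.991, edgeR). MPP2 KO libraries had 2.90, 1.67 and 0.634 CPM, against 0.586, 1.01 and 0.402 CPM in MPP2 Het and 0.884 and 0.824 CPM in MPP2 Sham libraries. KO library 1 was the highest and KO library 4 the lowest of the 3 KO libraries in every population. The fitted log2 change in MPP2 was 1.39 ± 0.90. Sham MPP2 differed from Sham HSC by -0.36 ± 1.09 and from Sham MPP1 by -0.53 ± 1.09 on the log2 scale (adjusted p = 0.864 and 0.785), and the KO effect in MPP1 minus that in HSC was 1.58 ± 1.25 (adjusted p = 1).

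**Figure D3:**
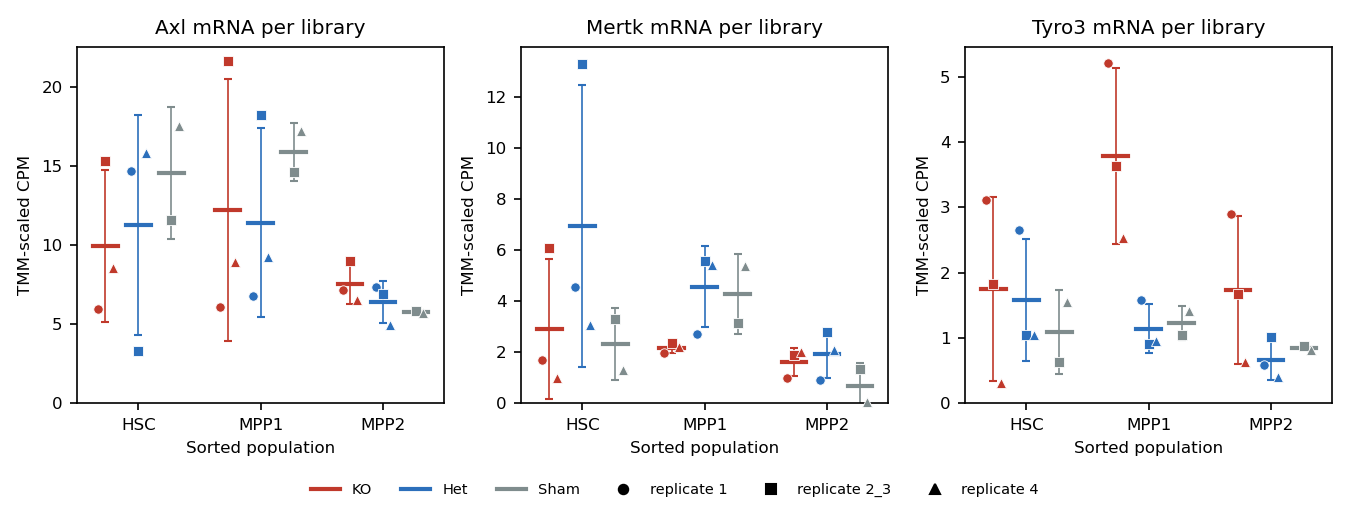
TMM-scaled CPM of Axl, Mertk and Tyro3 in each library of HSC, MPP1 and MPP2, for KO, Het and Sham (points: libraries with their replicate number; bars: mean and SD). In MPP1, Tyro3 lies at 2.53 to 5.21 CPM in KO and at 0.902 to 1.58 CPM in the controls, and Mertk at 1.98 to 2.38 CPM in KO and at 2.74 to 5.58 CPM in the controls.

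Of the 5 genes, Gas6 alone passed in any tested comparison, and only between populations. In Sham MPP2 against Sham HSC, 1 of 5 genes passed and 21.3% of all 21456 genes tested did, while 7.69% of all genes passed as lower. In Sham MPP2 against Sham MPP1, 1 of 5 passed, beside 14.9% of all genes, and 5.78% passed as lower. The median log2 change over all genes was -0.29 and -0.41 in these comparisons. A call in 1 of 5 is a share near that of all genes and says nothing particular about the family.

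None of the 5 genes passed in any comparison of genotypes outside MPP2. The share of all genes called was 0.615% in HSC and 0.0559% in MPP1 for KO against Het, and 2.28% in HSC and 0.121% in MPP1 for KO against Sham. For Het against Sham edgeR called 0% in HSC (0 genes, 1485 at an unadjusted p under 0.05, 78 by DESeq2 and 0 by limma-trend) and 0% in MPP1 (0 genes, 207 unadjusted, 5 by DESeq2 and 0 by limma-trend). MPP1 against HSC gave 0.014% in Het and 0.00466% in Sham, and the KO effect in MPP1 minus that in HSC gave 0% (0 genes, 1044 unadjusted, 23 by DESeq2 and 0 by limma-trend). In MPP2 KO against Het 0.415% of all genes were called, from which nothing is read for Gas6, since that contrast chose it.

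**Figure D4:**
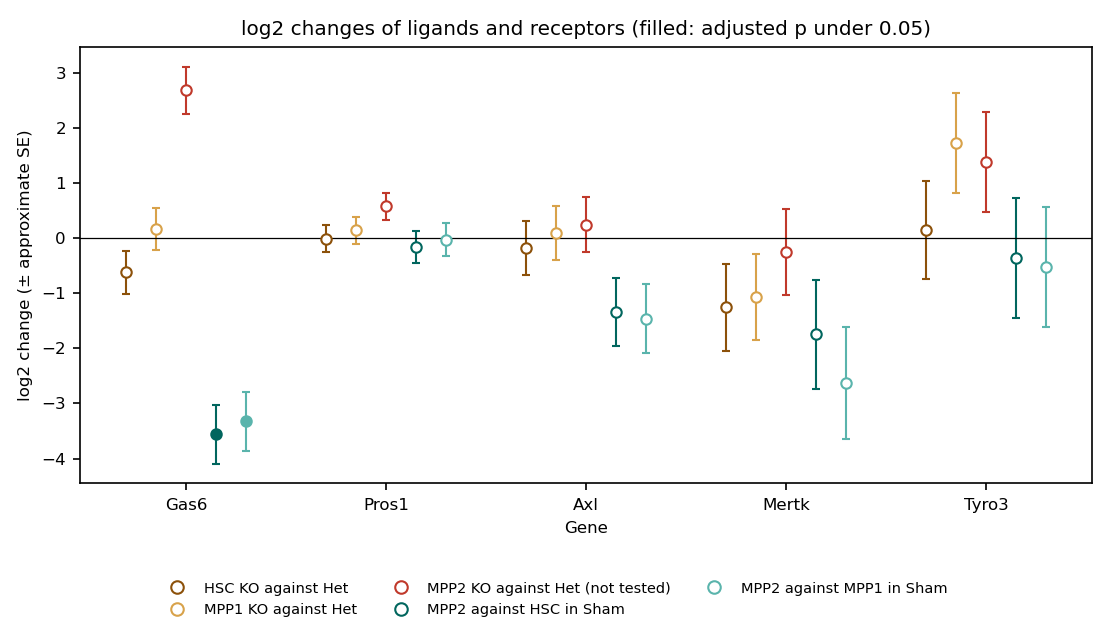
Fitted log2 changes with approximate SE of the 5 genes in 5 comparisons: KO against Het in HSC, MPP1 and MPP2, and MPP2 against HSC and against MPP1 in Sham; filled points passed an adjusted p of 0.05, and the MPP2 KO against Het values were not tested. Only Gas6 has filled points, at -3.56 and -3.33.

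The wider pathway was read from 89 genes in 8 lists, 88 of which were counted and tested. In HSC KO against Het 1 of 88 rose and 0 fell, in MPP1 0 passed, and in MPP2 1 rose and 0 fell. The medians of the 88 were 0.07, -0.03 and -0.02 on the log2 scale, beside 0.03, -0.11 and -0.06 for all genes. In Sham MPP2 against Sham HSC 12 were higher and 12 lower (median -0.44, all genes -0.29), and against Sham MPP1 6 were higher and 7 lower (median -0.55, all genes -0.41). Of all 21456 genes, 2914 were higher and 1651 lower in the first of these comparisons, 21.3% in all, and 1949 were higher and 1240 lower in the second, 14.9% in all. The counts of each list below are to be read against those shares, and nothing particular to a list is read from them.

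Genes that make the ligands active overlapped between KO and Het in MPP2. Gla domains are carboxylated by Ggcx with vitamin K recycled by Vkorc1. Ggcx had 11.1 to 15.1 CPM in MPP2 KO, against 12.4 to 16.7 CPM in MPP2 Het libraries, and Vkorc1 had 8.57 to 11.8 CPM in MPP2 KO, against 9.03 to 11.1 CPM in MPP2 Het libraries. Neither passed (log2 changes of -0.16 ± 0.25 and 0.10 ± 0.33, adjusted p = 0.993 and 0.997, edgeR). In HSC Vkorc1 had 5.31 to 16.0 CPM in KO and 3.84 to 6.34 CPM in Het (log2 change 1.03 ± 0.34, adjusted p = 0.15). HSC Sham libraries had 7.23 to 13.5 CPM, and KO against Sham gave a log2 change of -0.02 ± 0.37. None of the 6 genes of this list passed in the 3 KO against Het comparisons, and Vkorc1l1, a relative of Vkorc1, was higher in Sham MPP2, at 19.6 and 24.1 CPM, than in Sham HSC, at 10.1 and 10.7 CPM (log2 change 1.07 ± 0.30, adjusted p = 0.0084).

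Among 12 other genes of Gla proteins, Prrg4, which encodes a transmembrane Gla protein, rose in KO MPP2. It had 37.5 to 40.9 CPM in MPP2 KO, against 15.7 to 16.9 CPM in MPP2 Het and 16.7 to 19.3 CPM in MPP2 Sham libraries, a log2 change of 1.25 ± 0.26 against Het (adjusted p = 0.0158, edgeR). In HSC and MPP1 its KO and Het libraries overlapped. The call was lost without MPP2 KO library 1 (adjusted p = 0.103) and without MPP2 Het library 1, 2_3 or 4 (adjusted p = 0.127, 0.0636 and 0.0728), and in the deposited normalized table (adjusted p = 0.11), at log2 changes of 1.08 to 1.27.

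Adam10 and Adam17, proteases that cut TAM receptors from the cell surface, were higher in Sham MPP2 than in Sham HSC. Adam10 had 277 to 305 CPM in Sham MPP2 and 173 to 182 CPM in Sham HSC (log2 change 0.71 ± 0.17, adjusted p = 0.00213, edgeR), and Adam17 had 76.3 to 104 CPM in Sham MPP2 and 49.3 to 56.9 CPM in Sham HSC (0.76 ± 0.21, adjusted p = 0.00744). In each population every KO library had more Adam10 than every Het library: 274 to 368 CPM in KO and 208 to 255 CPM in Het HSC, 292 to 349 CPM in KO and 225 to 264 CPM in Het MPP1, and 355 to 417 CPM in KO and 270 to 324 CPM in Het MPP2. These log2 changes of 0.45 ± 0.14, 0.41 ± 0.14 and 0.43 ± 0.14 did not pass (adjusted p = 0.12, 0.397 and 0.317), although that in HSC did with DESeq2 and with the replicate block (adjusted p = 0.034 and 0.0406). Against Sham, Adam10 rose in HSC KO by 0.82 ± 0.16 (adjusted p = 0.00726). Rhbdf1, an adaptor that carries Adam17 to the surface, was lower in Sham MPP2, at 0.825 and 1.65 CPM, than in Sham HSC, at 10.3 and 11.1 CPM (-3.11 ± 0.80, adjusted p = 0.00442).

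Other ligands and bridges of dying cells showed no call between KO and Het. Lgals3, described as a Mertk ligand, had 0.669 to 1.52 CPM in MPP2 KO, against 0.804 to 2.47 CPM in MPP2 Het libraries. Mfge8, which links phosphatidylserine to integrins, had 31.9 to 43.0 CPM in MPP2 KO, against 24.6 to 27.3 CPM in MPP2 Het libraries, without overlap (log2 change 0.54 ± 0.21, adjusted p = 0.645, edgeR). Among 17 other receptors and bridges for phosphatidylserine, Scarb1 and Calr were higher in Sham MPP2 than in Sham HSC (1.14 ± 0.25 and 0.93 ± 0.17, adjusted p = 0.00115 and 0.000188). Among genes that set phosphatidylserine exposure, the scramblase Plscr1 and the flippase Atp8a1 were higher and the flippase Atp11a lower in Sham MPP2 than in Sham HSC.

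Downstream of the receptors, the Src family kinase Lyn rose in KO HSC. It had 83.4 to 124 CPM in HSC KO, against 49.1 to 76.0 CPM in HSC Het libraries, a log2 change of 0.72 ± 0.17 (adjusted p = 0.0386, edgeR). The call was lost under 8 of 15 alternatives, over which the adjusted p ran from 0.00864 to 0.521. Among these 8 were the fits without HSC KO library 1 or 4 or HSC Het library 1 or 2_3 (adjusted p = 0.258, 0.0675, 0.0868 and 0.153). The other 26 signalling genes did not pass in KO HSC. Between Sham MPP2 and Sham HSC 4 of 27 signalling genes were higher and 7 lower, where 21.3% of all genes passed. Grb2 and Ptpn11, adaptor and phosphatase of kinase signalling, were among the higher (0.97 ± 0.18 and 1.03 ± 0.20), and the phosphatidylinositol 3-kinase subunit Pik3r1 and Stat3 among the lower (-0.88 ± 0.20 and -0.71 ± 0.17). Grb2 and Ptpn11 were also higher in HSC KO than in HSC Sham (0.73 ± 0.17 and 0.78 ± 0.19, adjusted p = 0.0186 and 0.0235). Of 8 genes of engulfment, Dock1, Elmo1 and Rac2 were lower in Sham MPP2 than in Sham HSC (-1.12 ± 0.20, -0.86 ± 0.22 and -0.85 ± 0.28), where 7.69% of all genes passed as lower. Vkorc1l1, Rhbdf1 and the genes of these Sham comparisons other than Adam10, Adam17 and Lyn were named after their values were seen.

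The 5 genes whose log2 CPM most resembled Gas6 over the 24 libraries, out of 10936 compared, were Fstl1 (Pearson r = 0.967), Pglyrp2 (0.959), Raver2 (0.958), Col4a2 (0.954) and Prkag2 (0.949). The points share libraries, populations and depth, and r is a description of these libraries. MPP2 KO and Het libraries are among them, so that a difference in MPP2 shared with Gas6 follows in part from the choice of these genes. Without the 3 MPP2 KO libraries, 3 of the 5, Fstl1, Raver2 and Col4a2, remained among the nearest 5. Fstl1, a secreted glycoprotein, had 20.4, 19.3 and 13.8 CPM in MPP2 KO, against 2.90, 7.43 and 5.13 CPM in MPP2 Het and 3.33 and 7.90 CPM in MPP2 Sham libraries. Col4a2, a basement membrane collagen chain, had 49.8, 59.3 and 42.0 CPM in MPP2 KO, against 22.7, 29.4 and 17.8 CPM in MPP2 Het and 12.3 and 25.4 CPM in MPP2 Sham libraries. For both genes the MPP2 KO libraries lay above their controls and below every HSC and MPP1 library. For Gas6 this held except against MPP1 Het library 1, the lowest of the 16 HSC and MPP1 libraries for Gas6, Fstl1, Pglyrp2, Raver2, Col4a2 and Prkag2 alike. The highest MPP2 KO library also exceeded MPP1 Het library 1 for Pglyrp2 (49.3 and 46.4 CPM), Raver2 (12.8 and 8.56 CPM) and Prkag2 (51.2 and 49.4 CPM).

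Receptor patterns had looser matches. The gene most like Mertk was Robo1 (r = 0.845), followed by Armc9 (0.772), Phf11a (0.754), Lama5 (0.75) and Ghdc (0.743). The gene most like Axl was Trim30b (0.78), followed by Prdm2 (0.776), Faxc (0.77), Prune2 (0.747) and Kif6 (0.746).

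**Figure D5:**
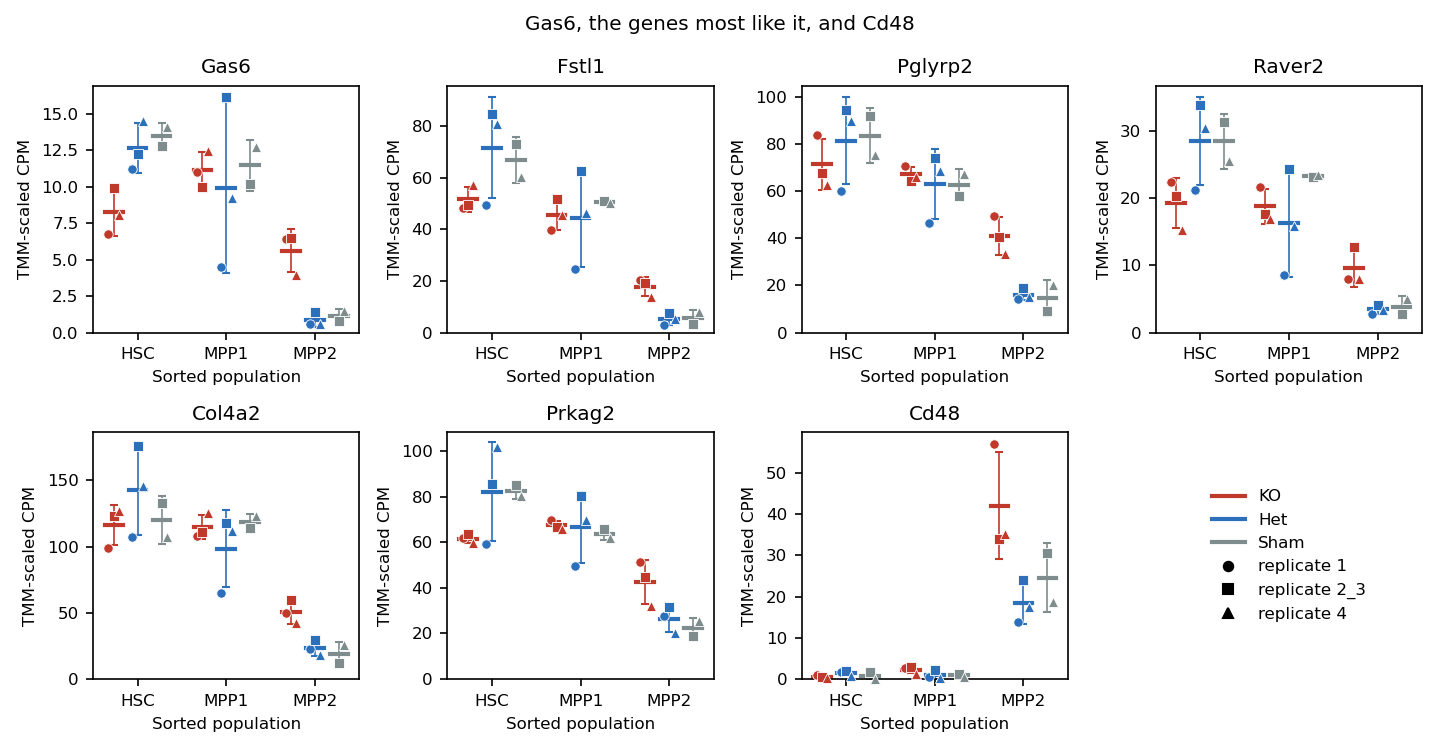
TMM-scaled CPM per library of Gas6, of the 5 genes most like it over 24 libraries, and of Cd48, in HSC, MPP1 and MPP2 for KO, Het and Sham (points: libraries with their replicate number; bars: mean and SD). Each of Gas6, Fstl1, Pglyrp2, Raver2, Col4a2 and Prkag2 is lower in MPP2 than in HSC controls and higher in MPP2 KO than in MPP2 Het. This is in part built in, as the genes like Gas6 were chosen over these same libraries. Cd48 is at 34.0 to 56.9 CPM in MPP2 KO and at 13.8 to 24.1 CPM in MPP2 Het.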

How the data were processed

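RNA of sorted HSC, MPP1 and MPP2 cells was sequenced as rRNA-depleted stranded libraries, per the labels' protocols. The authors deposited raw counts per gene for each of 24 libraries, with a gene length beside each count, which is in bases per the file headers. The submitters' processing notes name the build mm9 and, in no order, R 3.1.2, edgeR, featureCounts, Bowtie 1.0.0, TopHat2 2.0.9, Trimmomatic 0.33 and FastQC. The strand setting is not given in the sources used here. A deposited table of normalized signal for 12186 genes, on a scale near CPM, whose steps are not given in the sources used here, was used for a single alternative with limma on log2(signal + 1).

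Counts were fitted in R 4.3.3 with edgeR 4.0.16. Genes were kept by filterByExpr, which left 21456 including all 5 members, and libraries were scaled by TMM. A robust quasi-likelihood model with 9 group means left 15 residual degrees of freedom. The F tests were adjusted by Benjamini-Hochberg over every gene in the fit and read at 0.05. The approximate SE of a log2 change is its size over the root of its F value. Nothing in the labels says that the pools shared no mice, and p-values measure the spread between them. Alternatives were DESeq2 1.42.0, limma 3.58.1, other scaling and filters, a replicate block, fewer groups and each library left out. The script was tested on simulated data. Log2 CPM for likeness used a prior count of 2 and genes whose mean reached 5 CPM in some group. Positions are those of GENCODE for mm9.

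The members and gene lists were chosen with earlier results of these data known. Named by rule were the 5 members, Ggcx, Vkorc1, Adam10, Adam17, Mfge8, Lgals3, up to 8 pathway genes past the threshold in each KO against Het comparison, and the 5 genes most like Gas6 and most like the receptor with the highest level per length. That receptor is Mertk by the lengths of the count files and Axl by those of GENCODE, and both are given. The values of 1 pathway gene are not reported here.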

Additional observations from a re-analysis of the deposited data

Results flagged for a closer look

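The KO against Het change of Gas6 lay in opposite directions in MPP2 and HSC. All 3 MPP2 KO libraries exceeded all 3 MPP2 Het libraries, by a log2 change of 2.68, and all 3 HSC KO libraries lay below all 3 HSC Het libraries, by -0.62. The change in MPP2 minus that in HSC is 3.3 on the log2 scale. This difference was not tested, since Gas6 was chosen by its values in MPP2.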

How the results depend on the processing

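Gas6 passed as lower in Sham MPP2 under each of 13 alternatives against HSC (log2 changes of -4.02 to -2.21, adjusted p up to 0.00246) and each of 12 against MPP1 (-3.79 to -1.89, adjusted p up to 0.0148). Its MPP2 KO against Het value ran from 1.85, in the deposited normalized table, to 3.19, and its MPP2 KO against Sham value from 1.27, in the same table, to 2.76. The labels give KO and Het the same replicate numbers. The deviations of same-numbered libraries correlated at 0.0735 to 0.157 in MPP1 and 0.0213 to 0.464 in MPP2, but at -0.39 to 0.111 in HSC. Differently numbered pairs gave -0.146 to 0.0739 in MPP1, -0.406 to 0.14 in MPP2 and -0.505 to 0.504 in HSC. Deviations from a mean of 3 libraries cancel out, so these pairs are no independent yardstick. As the HSC pairs did not all deviate together, the numbers were not taken to pair samples in any population. In MPP1 and MPP2 all same-numbered pairs correlated positively. A batch shared by number was not tested. With the replicate block Gas6 changed by -0.63 in HSC KO against Het and by -3.55 and -3.32 in the Sham comparisons. The genes past the threshold in KO against Het then numbered 726 in HSC and 35 in MPP1, beside 132 and 12 in the main fit.

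No member passed in the other tested comparisons under any alternative run. In Sham MPP2 against HSC 2 members passed with the groups of the comparison only, without both HSC libraries with the fewest genes (an alternative chosen after seeing the data), and without MPP2 Sham library 2_3 (range over left-out libraries 1 to 2). Against MPP1 2 passed with DESeq2, limma-trend, the replicate block, the groups of the comparison only and without MPP2 Sham library 2_3 (range 1 to 2). The second member was Axl or Mertk.

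The background counts moved more. Genes past the threshold in HSC KO against Het numbered 646 with DESeq2, 229 with limma-trend, 10 with the groups of the comparison only, 4 without both HSC libraries with the fewest genes, 595 in the deposited table and 12 to 374 with 1 library left out, namely 12 and 68 when KO library 1 or 2_3 was dropped, and 374, 13 and 246 when Het library 1, 2_3 or 4 was. In MPP1 they numbered 74 with DESeq2, 0 with the groups of the comparison only, 50 in the deposited table and 1 to 24 with 1 library left out, moving by over 1.5 times with each of the 6. With 1 library left out the Sham counts were 2389 to 3809 for MPP2 against HSC and 651 to 2590 for MPP2 against MPP1, the lowest of both without MPP2 Sham library 2_3 (also 2858 without HSC Sham library 2_3, and 1632 and 1240 without MPP1 Sham libraries 2_3 and 4), and with the groups of the second comparison only 5909. In the deposited table the median over all genes of these comparisons was -0.05 and -0.01, so its log2 changes stand on another centre.

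Values near 0 turned sign, all of them without a call and with no cause tested. Pros1 in Sham MPP2 against MPP1 was 0.0082 with no filter and 0.043 with the groups of the comparison only. Axl in HSC KO against Het was 0.0099 with limma-trend and 0.011 in the deposited table, and Tyro3 was -0.19 with limma-trend and -0.80 without both HSC libraries with the fewest genes. Adam17 in MPP2 KO against Het was -0.022 in the deposited table. With 1 library left out, Gas6 ran from -0.19 to 0.71 and Axl from -0.61 to 0.60 in MPP1 KO against Het. In HSC KO against Het the ranges were -0.12 to 0.083 for Pros1, -0.63 to 0.15 for Axl, -0.57 to 0.74 for Tyro3, -0.065 to 0.31 for Adam17, -0.21 to 0.0069 for Ggcx and -0.31 to 0.075 for Mfge8. In Sham MPP2 against HSC they were -0.61 to 0.19 for Pros1 and -0.82 to 0.43 for Tyro3, and against MPP1 -0.48 to 0.32 for Pros1. Another 42 values of members and Lgals3 are given only as counts of calls, and of their 582 values under alternatives 62 had the other sign and 0 newly passed. The deposited table lacks Tyro3. Sham groups have 2 libraries, and Gas6 in MPP2 controls rests on 20 to 39 counts a library.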

Other observations

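A pair of sets of genes was formed after the Gas6 values were seen, and is described without a test. The first held 1141 genes, Gas6 among them, that passed as lower in Sham MPP2 than in both Sham HSC and Sham MPP1. In MPP2 KO against Het 63.0% of them had a log2 change above 0 with a median of 0.15, 28 rose and 0 fell. All genes tested had 44.9% above 0 and a median of -0.06. That contrast chose Gas6, so nothing is read for Gas6 from the set in MPP2. In HSC KO against Het the set went the other way, with 16.1% above 0, a median of -0.35, 0 that rose and 30 that fell, beside 51.9% and 0.03 for all genes. In MPP1 29.0% were above 0 with a median of -0.22, 0 rose and 3 fell, beside 43.7% and -0.11 for all genes.

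The second set held 1783 genes that passed as higher in Sham MPP2 than in both. In KO against Het 87.7% of them were above 0 in HSC, 92.1% in MPP1 and 78.3% in MPP2, with medians of 0.31, 0.29 and 0.15. In HSC 40 rose and 2 fell, in MPP1 1 rose and 0 fell, and in MPP2 5 rose and 1 fell. Of all 21456 genes tested, 69 rose and 63 fell in HSC, and 7 rose and 5 fell in MPP1. In MPP2 81 of all genes rose and 8 fell. The calls in both sets are to be read beside these totals, which are 0.615%, 0.0559% and 0.415% of all genes. The shares above 0 and the medians of all genes are those given with the first set.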
